A study of Homo sapiens with 10 samples.

Results

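The regions described here are broad promoters that carried the histone mark H3K27ac in 8 of 8 libraries of 2 HER2 breast cancer cell lines. All 8 peak lists were merged where peaks overlapped by 1 bp or more, on chromosomes 1 to 22 and X. Regions were selected on presence, position and width: a merged region was kept when it held a peak of all 8 lists, lay within 1 kb of a GENCODE transcription start site (TSS) of a protein-coding gene, and was 5000 bp or more wide. The rule found 2438 regions among 76044 merged regions. Of the 17704 regions present in all 8 lists, 8711 lay at promoters, and 6273 of these fell under the width limit and are called narrower promoters below. The 2438 broad promoters held start sites of 3049 of 19962 protein-coding genes, or 15.3%.

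The study profiled SKBR3 and MDA-MB-453, both established human breast cancer lines of the HER2 subtype, with or without TWEAK, a cytokine of the TNF family (TNFSF12) that binds the receptor Fn14 (TNFRSF12A). Per the labels, the cells first spent 8 h in optimem, and the treated ones were then kept for 48 h with TWEAK (10 ng/ml), which was renewed after 24 h. Of the 4 libraries of a line, 2 were untreated and 2 came from TWEAK-treated cells. Each line is a single cell model, so the contrast of the lines is a contrast of 2 cultures and not of 2 tumour types.

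H3K27ac is the acetylation of lysine on the tail of histone H3, and the acetyltransferases p300 and CBP deposit it at active promoters and enhancers. At most active promoters the mark forms short domains on either side of the start site. At some genes it runs on over many kilobases, and wide promoter domains are known for genes that set the identity of a cell and for genes that are transcribed at high rates. Such a domain can reach into the gene body, join neighbouring promoters or take in nearby enhancers.

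To show the promoters themselves, the sequence upstream of the start site is given for 3 of the widest regions, for the promoter that was broad to a like extent in both lines (XBP1), and for a promoter called for TWEAK by both length and fold enrichment whose gene is a known target of the pathway (BIRC3). Each is the 250 bases before the RefSeq start site (GRCh38.p14), read 5′ to 3′. Capitals mark the GC box (GGGCGG, either strand) in ST3GAL4, ACTN4 and GSE1, the CCAAT box (CCAAT, either strand) in XBP1, and matches to the NF-kB consensus in BIRC3. The windows lie at chr11:126355762-126356011 (ST3GAL4, plus strand), chr19:38647399-38647648 (ACTN4, plus strand), chr16:85613072-85613321 (GSE1, plus strand), chr22:28800570-28800819 (XBP1, minus strand) and chr11:102317234-102317483 (BIRC3, plus strand). All 5 lie inside their broad promoter.
ST3GAL4: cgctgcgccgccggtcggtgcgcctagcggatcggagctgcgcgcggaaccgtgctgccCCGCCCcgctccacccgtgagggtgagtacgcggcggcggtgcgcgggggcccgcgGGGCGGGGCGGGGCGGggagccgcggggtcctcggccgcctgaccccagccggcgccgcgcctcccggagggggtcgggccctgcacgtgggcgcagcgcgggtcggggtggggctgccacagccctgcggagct
ACTN4: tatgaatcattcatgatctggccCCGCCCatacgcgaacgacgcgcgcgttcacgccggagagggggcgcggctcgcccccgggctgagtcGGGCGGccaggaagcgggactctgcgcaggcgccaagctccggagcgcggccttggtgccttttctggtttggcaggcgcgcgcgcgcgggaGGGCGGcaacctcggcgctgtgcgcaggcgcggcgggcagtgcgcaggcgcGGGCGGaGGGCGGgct
GSE1: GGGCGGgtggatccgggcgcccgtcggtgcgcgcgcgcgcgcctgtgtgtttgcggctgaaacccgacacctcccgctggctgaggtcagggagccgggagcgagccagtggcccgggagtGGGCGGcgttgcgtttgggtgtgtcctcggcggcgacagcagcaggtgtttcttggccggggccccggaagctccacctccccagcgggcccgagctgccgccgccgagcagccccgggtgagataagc
XBP1: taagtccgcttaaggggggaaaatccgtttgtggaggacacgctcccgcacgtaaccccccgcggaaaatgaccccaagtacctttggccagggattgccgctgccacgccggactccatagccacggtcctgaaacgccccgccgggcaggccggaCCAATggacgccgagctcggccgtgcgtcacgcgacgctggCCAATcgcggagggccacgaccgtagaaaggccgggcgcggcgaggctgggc
BIRC3: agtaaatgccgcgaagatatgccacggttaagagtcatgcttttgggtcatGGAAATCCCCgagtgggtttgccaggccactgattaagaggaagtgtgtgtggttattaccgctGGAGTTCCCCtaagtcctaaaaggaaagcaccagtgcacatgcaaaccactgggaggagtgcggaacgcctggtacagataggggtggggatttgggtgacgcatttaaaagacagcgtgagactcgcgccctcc

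The ST3GAL4 window had 42 CpG dinucleotides and a GC content of 82.8%, the ACTN4 window 40 CpG and 74.4%, and the GSE1 window 31 CpG and 74.0%. They held 4, 5 and 2 GC boxes, which bind the Sp family of transcription factors. Not all of the widest regions were like this. The window of SH3BP4, the second widest, had 3 CpG, a GC content of 46% and 0 GC boxes. That of MYH9 had 21 CpG, 71.6% and 6 GC boxes. The XBP1 window held 2 CCAAT boxes, 93 and 52 bases before the start. The BIRC3 window was poorer in CpG, with 11 and a GC content of 52.4%, and held 2 NF-kB matches that begin 199 and 135 bases before the start. A match is a string in the reference and was not tested as a binding site.

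Sequence composition was then compared over all genes, in windows from 250 bases before to 50 bases after the start of the canonical transcript, read from hg38. The 3048 broad-promoter genes with a window had a median GC content of 68.0% (65.7% in 7120 genes with narrower promoters only, 63.7% in all 19961 genes). A CpG-rich start, with an observed over expected CpG ratio above 0.6 and a GC content above 50%, was found in 82.4% of broad, 89.0% of narrower and 65.4% of all promoters. The GC box was present in 76.9% of broad, 74.5% of narrower and 61.3% of all windows. The ETS motif CCGGAAG was present in 15.4% of broad windows, against 26.0% of narrower ones and 14.1% of all. The YY1 motif ATGGCGG was present in 10.7%, 13.4% and 7.83%, and the NRF1 motif GCGCATG in 6.69%, 9.42% and 5.79%. The TATA box TATAAA was present in 7.51% of broad, 3.99% of narrower and 9.73% of all windows. Thus the strings of ETS, YY1 and NRF1, known from housekeeping promoters, were less frequent at genes with broad promoters than at genes with narrower ones. The TATA string was more frequent. The CCAAT box (37.1%, 37.5% and 36.0%), the CRE TGACGNCA (6.66%, 7.06% and 4.72%), the E-box CACGTG (10.4%, 10.8% and 8.75%) and the AP-1 motif TGANTCA (3.97%, 3.53% and 5.44%) lay closer together. The AP-2 motif GCCNNNGGC was present in 35.1% of broad, 33.6% of narrower and 29.6% of all windows, and the NF-kB consensus in 7.48%, 6.21% and 6.57%. Motifs were searched on both strands, the GC-rich ones can overlap one another, and the shares are descriptions with no test. A window was taken at the canonical start of a gene whether or not this start lay inside the broad region.

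Merged width ranged from 5000 to 98115 bp with a median of 8217 bp. Of the 2438 regions, 921 were 10 kb or more, 253 were 20 kb or more and 20 were 50 kb or more. The 3 regions just inside the limit lay at TAOK2 (5000 bp), GOT2 (5001 bp) and UGT1A6 (5001 bp), and the 3 just outside lay at BRIX1/RAD1 (4999 bp), TMEM107 (4999 bp) and BET1L/RIC8A (4995 bp). A single protein-coding gene had its start at 1890 regions, 2 genes at 424 and 3 or more at 124.

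Merged width can be wider than what any 1 library covered, so the covered length, the bp of a region under the peaks of 1 library, was taken for each list. Only 718 of the 2438 regions (29.5%) had 5 kb or more covered in each of the 8 lists. Another 466 reached 5 kb in the 4 SKBR3 lists and in 0 of the 4 MDA-MB-453 lists, 155 showed the reverse, and 191 reached it in no list alone. In 125 regions at least 1 list had under 1 kb of peak. A peak lay within 1 kb of a start site in all 8 lists for 2278 regions (93.4%). In 91 regions no MDA-MB-453 list had such a peak and in 14 regions no SKBR3 list had one, so that for these the shared peak lay elsewhere in the region.

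The label of a shared promoter was checked against marker genes. Of 9 luminal and HER2 markers, 9 had a region at a start site in all 8 lists and 8 were broad (ERBB2, KRT8, KRT18, KRT19, GATA3, FOXA1, TFAP2C and SPDEF). EPCAM was present in all 8 lists but its region was 2.69 kb wide. The basal keratins KRT5 and KRT14 and the markers PTPRC, CD3E, CD14, PECAM1 and COL3A1 of immune, endothelial and fibroblast cells had no peak within 1 kb of a start site in any list. VIM and ZEB1 had a region in 7 lists and TP63 in 5. CDH5, of endothelial cells, and COL1A1, of fibroblasts, had one in all 8 lists and were classed as narrower, at 2.60 and 3.07 kb. A wider region at another CDH5 start (7.64 kb) was present in 4 lists and so did not meet the rule.

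To compare the libraries, the covered length per region was summarised in each list. In SKBR3 the median broad promoter had 6.55 and 6.08 kb covered in the untreated libraries and 6.43 and 6.22 kb after TWEAK. In MDA-MB-453 the medians were 4.85 and 4.94 kb untreated and 4.93 and 4.87 kb after TWEAK. All 4 SKBR3 libraries lay above all 4 MDA-MB-453 libraries, with means of 6.32 ± 0.208 kb (SD, n = 4) and 4.90 ± 0.0446 kb (SD, n = 4). The order was the reverse at narrower promoters, with 1.58 ± 0.0753 kb in SKBR3 and 1.97 ± 0.0226 kb in MDA-MB-453 (SD, n = 4). These medians are given with no test, because the rule chose regions by their width in either line. The lists held 43684 to 51687 peaks in SKBR3 and 36148 to 37813 in MDA-MB-453. With lists of equal size the medians of the lines differed by 1.42 kb, as with the full lists (1.42 kb). That setting drops the weakest peaks and leaves the length of the others as it was. When a list had to cover 50% of a region, the difference was 0.220 kb. The 2438 regions made up 20.2% to 23.6% of all bp covered in a list.

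**Figure D1:**
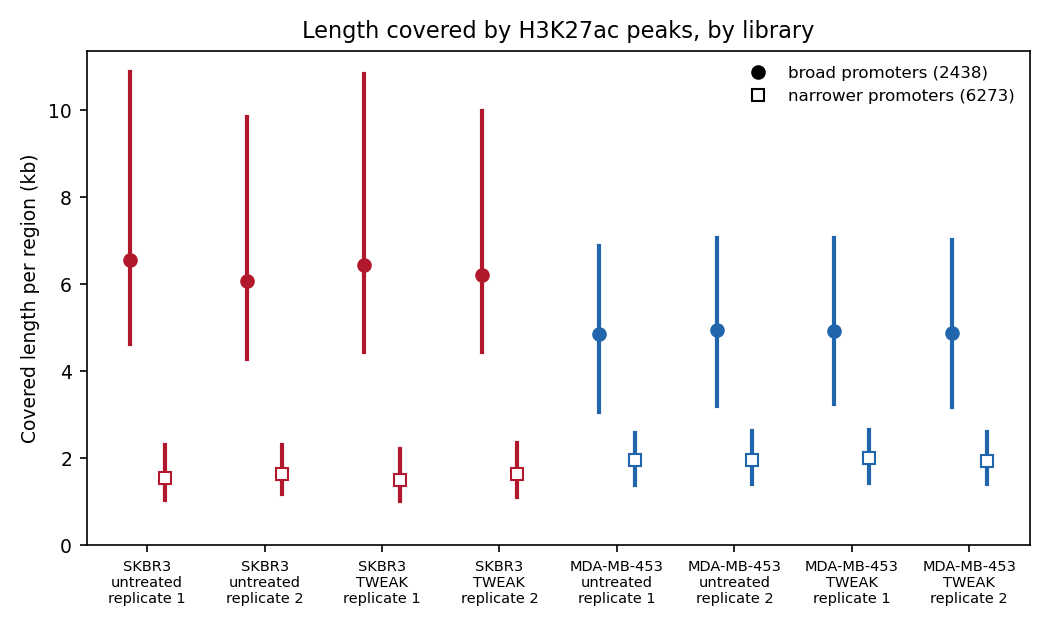
Covered length per region in kb (y axis) in each of the 8 libraries (x axis), with the median as a symbol and the interquartile range as a bar, for 2438 broad promoters (filled circles) and 6273 narrower promoters (open squares). SKBR3 (red) had medians of 6.08 to 6.55 kb at broad promoters and MDA-MB-453 (blue) 4.85 to 4.94 kb, while narrower promoters were longer in MDA-MB-453.

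Broad promoters also had higher fold enrichment over input, a value the rule did not use but that comes from the same peaks. The fold enrichment of a region is the mean of its peaks in a list, weighted by their length, and was ranked within its list. The median broad promoter stood at the 68.1st to 71.4th percentile of the regions tested in each list, against the 49.9th to 61.0th for narrower promoters and the 34.2nd to 43.7th for regions of all 8 lists away from promoters. Length and fold enrichment within a list were related, with Spearman's rho of 0.220 to 0.414 over the 2438 broad promoters of the same library. At narrower promoters rho was 0.407 to 0.572. These values are descriptions with no test. Since the rule chose by width, the higher rank of broad promoters is a description too.

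The shape around the start site was examined in 1666 broad promoters with 1 gene and its start inside the region. The merged region reached a median of 2.41 kb upstream and 5.35 kb into the gene, and 74.5% extended farther downstream than upstream. At narrower promoters 72.2% did so, with 0.954 kb upstream and 1.40 kb downstream. The whole gene lay inside the region at 246 of the 1666 broad promoters (14.8%) and at 0.682% of 4841 narrower ones, where the median gene was 28.8 and 35.3 kb long. At 5 kb into the gene, 42.8% ± 3.44 of broad promoters were covered in SKBR3 and 24.1% ± 0.232 in MDA-MB-453 (SD, n = 4). At 5 kb upstream these shares were 20.6% ± 0.745 and 11.3% ± 0.0849. Coverage at the start site itself was closer, at 93.9% ± 0.981 and 92.1% ± 0.282. The peak that held the start site extended a median of 3.28 ± 0.291 kb downstream in SKBR3 and 2.48 ± 0.0337 kb in MDA-MB-453, and 1.52 ± 0.0557 and 1.30 ± 0.0216 kb upstream (SD, n = 4).

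**Figure D2:**
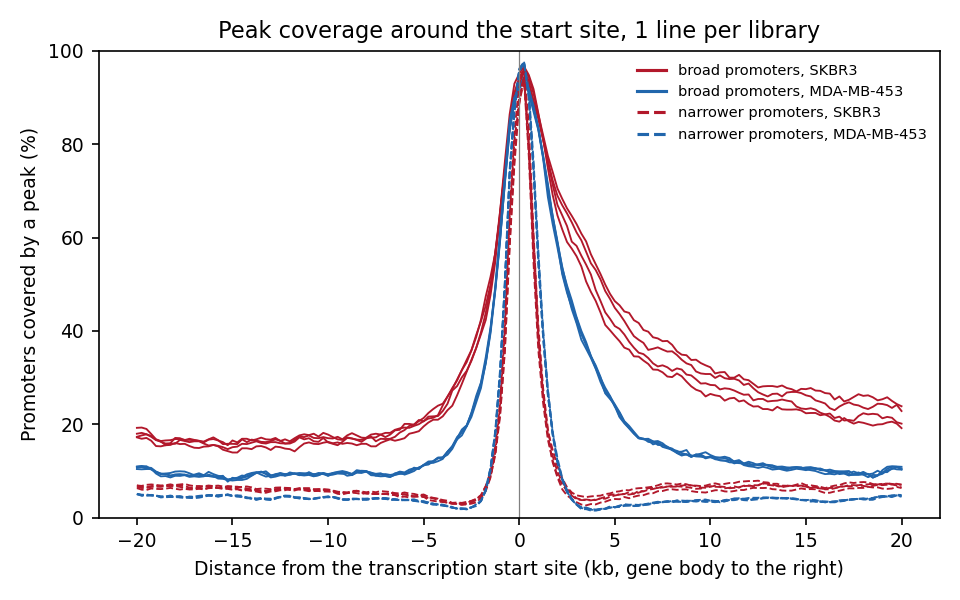
Share of promoters covered by a peak (y axis, %) at each distance from the start site (x axis, kb, gene body to the right), 1 line per library, for broad (solid) and narrower (dashed) promoters in SKBR3 (red) and MDA-MB-453 (blue). Coverage of broad promoters fell more slowly on the gene side, to 42.8% in SKBR3 and 24.1% in MDA-MB-453 at 5 kb.

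The widest regions came from SKBR3. DLG5, a scaffold protein of cell junctions, had the widest (chr10:77830849-77928963, hg38), with 98.1, 82.9, 91.1 and 80.8 kb covered in the SKBR3 libraries and 30.7 to 33.8 kb in MDA-MB-453. SH3BP4, which acts in endocytosis, followed (chr2:234945345-235037991) with 78.6 to 90.3 kb and 31.6 to 34.7 kb. Both were broad in each line, with no overlap between the lines. ST3GAL4, a sialyltransferase (chr11:126332158-126422042), had 88.7 to 89.4 kb in SKBR3 and 9.70 to 11.3 kb in MDA-MB-453. The MYBBP1A/SPNS2 region (chr17:4472139-4558510) had 81.5 to 84.9 kb and 8.15 to 8.82 kb, and SPNS2 is a transporter of sphingosine-1-phosphate. SEPTIN9, a cytoskeletal GTPase (chr17:77348368-77431702), had 71.3 to 81.7 kb in SKBR3 but 0.302 to 0.484 kb in MDA-MB-453, where no list had a peak within 1 kb of its start sites. It met the rule only through these short peaks. GSE1 (72.3 to 82.0 kb against 30.5 to 32.2 kb), the actin crosslinker ACTN4 (67.9 to 74.1 against 16.8 to 18.3 kb), the non-muscle myosin heavy chain MYH9 (59.6 to 68.8 against 25.2 to 26.4 kb), N4BP3/RMND5B (57.4 to 59.7 against 23 to 23.8 kb) and the polarity gene LLGL2 (52.5 to 58.3 against 10.5 to 12.1 kb) complete the 10 widest.

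Ranking by the least covered length over the 8 lists brought out regions that were broad in each library. CD9, a tetraspanin (chr12:6194886-6243376), had 45.3 to 48.1 kb in SKBR3 and 34.2 to 35.9 kb in MDA-MB-453. XBP1, a transcription factor of the unfolded protein response and a partner of the luminal programme (chr22:28790494-28830699), had 37.8, 34.3, 35.6 and 34.1 kb in SKBR3 and 37.0, 38.7, 38.4 and 39.1 kb in MDA-MB-453. Its ranges overlapped between the lines. CD9 was longer in SKBR3 in kb, but its direction turned when lengths were replaced by normal scores of their ranks. The histone cluster H2AC18/H2AC19/H3C14/H3C15/H4C14/H4C15 (chr1:149829380-149864647) had 30.8 to 31.9 kb and 33.7 to 35.3 kb.

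To see which kinds of gene had broad promoters, 21 gene lists were classed. The background for each count is the 15.3% of all protein-coding genes that were broad. Of the genes with a promoter in all 8 lists, 30.0% were broad. Genes of the luminal epithelium stood high: 15 of 20 luminal transcription factors and 16 of 18 luminal keratins and epithelial genes were broad, and 0 of 14 basal and mesenchymal genes. Rapidly induced genes did too, with 28 of 36 immediate early and AP-1 genes. So did genes of high output, with 59 of 69 replication-dependent histone genes (in 18 shared regions), 47 of 79 cytosolic ribosomal protein genes, 14 of 26 translation factors, 10 of 14 heat shock and ubiquitin genes and 18 of 33 SR and hnRNP splicing factors. Of 22 lipid and sterol synthesis genes, 16 were broad, as were 16 of 24 ERBB receptors and signal adaptors and 12 of 19 genes of the HER2 amplicon on chromosome 17. These counts depended on the rule. When a list had to cover 50% of a region, 928 promoters were broad. They held 7 luminal transcription factors, 6 luminal keratins and epithelial genes, 14 immediate early genes and 0 HER2 amplicon genes. At a limit of 10 kb, 921 promoters were broad, with 10 cytosolic ribosomal protein genes and 4 splicing factors. At least 47 histone genes were broad in each setting.

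Other lists were mostly active and narrow. Of 78 mitochondrial ribosomal protein genes, 13 were broad and 65 narrower, so that all 78 had a region in all 8 lists. Of 28 tumour suppressor genes, 7 were broad and the other 21 narrower, RB1 and BRCA1 among them. Of 476 ZNF zinc finger genes, 28 were broad (5.88%) and 278 narrower. Chromatin regulators (20 of 50), unfolded protein response genes (9 of 20), cyclins, CDKs and CDK inhibitors (10 of 30) and NF-kB pathway and target genes (10 of 30) lay between. Of the genes of these lists with a promoter in all 8 lists, 38.5% (cyclins and CDKs) to 52.6% (NF-kB) were broad. HOX cluster genes, by contrast, were mostly without a peak. Of 39, 6 were broad, 0 were narrower, 3 had a peak in some lists and 30 had no peak at a start site. Thus 100% of those with a promoter in all 8 lists were broad. Of 13 genes of other cell types 10 had no peak and 1 was broad, CD68, whose region it shares with the translation factor EIF4A1.

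**Figure D3:**
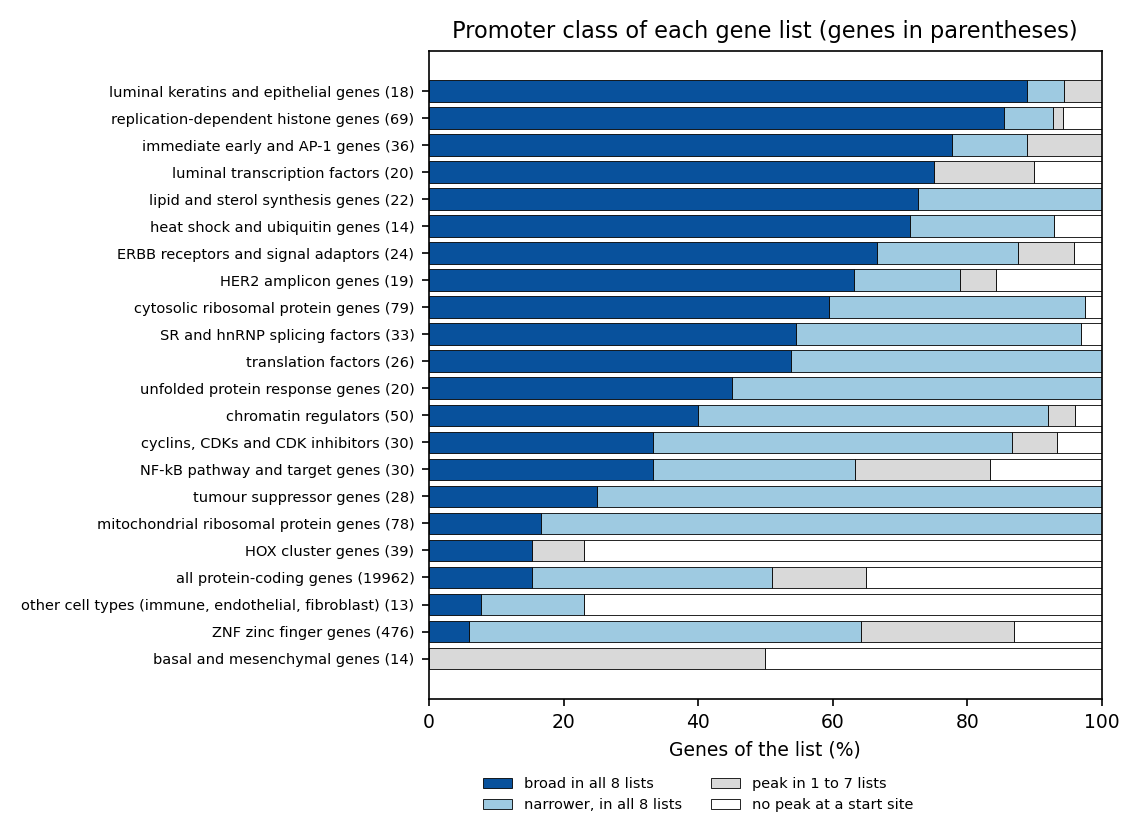
Share of the genes of each list (x axis, %) that were broad in all 8 lists, narrower in all 8 lists, present in 1 to 7 lists or without a peak at a start site, with the number of genes in parentheses. Luminal keratins and epithelial genes, histone genes, immediate early genes and luminal transcription factors had the most broad promoters, against 15.3% of all protein-coding genes and 0 of 14 basal and mesenchymal genes.

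The lines were then compared region by region with limma on log2 values centred on the median of each library over the 17704 shared regions. By covered length, 1306 broad promoters (53.6%) were longer in SKBR3 and 435 (17.8%) in MDA-MB-453 at an adjusted p under 0.05, against 30.1% and 30.7% of all regions tested. All 4 SKBR3 libraries lay above all 4 MDA-MB-453 libraries in 1348 broad promoters (55.3%, against 29.5% of all regions) and below in 457 (18.7%, against 29.7%). Since the rule chose by width, these splits are a description. Of the 718 regions with 5 kb or more in each list, 388 were longer in SKBR3, against 64 in MDA-MB-453. The split also depended on the scale: with lengths replaced by normal scores of their ranks within a library, SKBR3 had 882 longer broad promoters and MDA-MB-453 844 (27.4% and 35% of all regions).

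**Figure D4:**
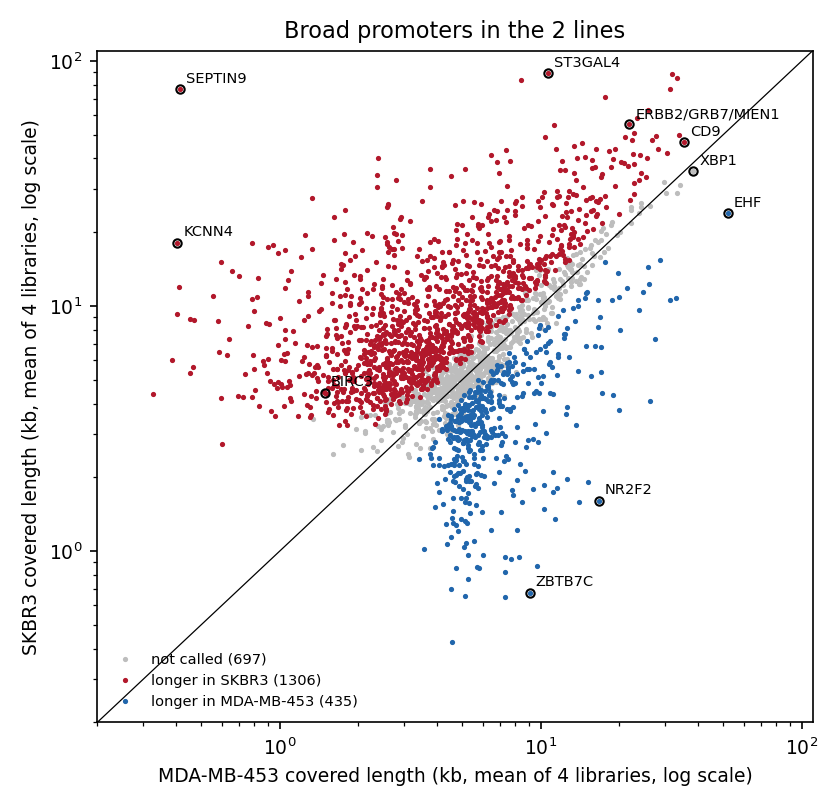
Covered length in MDA-MB-453 (x axis, kb, log scale) and SKBR3 (y axis, kb, log scale), means of 4 libraries each, for 2438 broad promoters, coloured by the limma call, with the diagonal of equal length. The 1306 regions called longer in SKBR3 include SEPTIN9, KCNN4 and ST3GAL4, and the 435 called longer in MDA-MB-453 include EHF, NR2F2 and ZBTB7C.

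By fold enrichment, which the rule did not use, the numbers were near the background: 793 broad promoters (32.5%) were higher in SKBR3 and 870 (35.7%) in MDA-MB-453, against 35.7% and 32.6% of all regions. With centred values the libraries of the lines did not overlap in 738 (30.3%) toward SKBR3 and 837 (34.3%) toward MDA-MB-453 (31.2% and 29.9% of all regions). Without centring the calls were 385 and 1294 (18.2% and 49.1% of all regions), as fold enrichment ran higher in the MDA-MB-453 lists. The medians over broad promoters were 7.67 to 9.78 in SKBR3 and 10.9 to 11.6 in MDA-MB-453. Length and fold enrichment did not always go together. Of the regions called for both, 625 were longer and more enriched in SKBR3 and 274 in MDA-MB-453, while 283 were longer in SKBR3 and more enriched in MDA-MB-453 and 38 the reverse. Joint calls were not counted over all regions, and width chose the broad promoters, so these 4 counts are a description of them only.

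Among single regions, the largest differences in length were at regions that 1 line barely covered. KCNN4, a calcium-activated potassium channel, had 20.1, 16.9, 19.4 and 16.3 kb in SKBR3 and 0.568, 0.479, 0.282 and 0.287 kb in MDA-MB-453. TRAFD1 (13.9 to 16 against 0.283 to 1.36 kb), RIPOR3 (11.2 to 12.5 against 0.285 to 0.586 kb) and MATR3 (8.09 to 9.92 against 0.285 to 0.685 kb) followed after SEPTIN9. In the other direction, NR2F2, an orphan nuclear receptor, had 1.44 to 1.74 kb in SKBR3 and 16.2 to 17.1 kb in MDA-MB-453. ZBTB7C (0.514 to 1.06 against 8.76 to 9.25 kb), SAMD13 (0.237 to 1.07 against 7.08 to 7.56 kb), DENND1A (0.655 to 1.38 against 8.83 to 10.4 kb) and EAF2/IQCB1 (0.269 to 0.616 against 4.15 to 5.08 kb) showed the same pattern. A peak within 1 kb of a start site was missing at KCNN4 in every MDA-MB-453 list and at ZBTB7C in every SKBR3 list. At RIPOR3 only 1 MDA-MB-453 list had one. The short lengths there lay elsewhere in the region.

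The largest differences in fold enrichment toward SKBR3 were at TRIM47, a ubiquitin ligase, with 18.3, 31.0, 29.5 and 34.0 in SKBR3 and 3 to 3.64 in MDA-MB-453 (log2 difference 3.41, SE 0.12, limma adjusted p = 4.3e-09). BATF, an AP-1 family factor, had 15.7 to 29.2 against 3.10 to 3.35 (log2 difference 3.17), IQSEC1 19.2 to 28.3 against 3.19 to 4.06, MESP1/MESP2 16.6 to 25.9 against 3.50 to 4.34, and LPCAT1 12.1 to 23.1 against 2.72 to 3.41. Toward MDA-MB-453, TTC12 had 3.65 to 4.17 in SKBR3 and 23.5 to 24.7 in MDA-MB-453 (log2 difference -2.26, SE 0.11, limma adjusted p = 1.9e-08). The splicing regulator ESRP1 (4.17 to 6.76 against 26.7 to 33.0), the phosphodiesterase PDE7A (4.43 to 5.68 against 23.4 to 28.1), NFIA (3.50 to 4.45 against 19.8 to 22.2) and TTC9 (4.54 to 5.27 against 23.7 to 28.2) were next. In each of these 10 regions the lines did not overlap. At IQSEC1 no MDA-MB-453 list had a peak within 1 kb of a start site, so its values there come from elsewhere in the region. At TRIM47 3 of the 4 MDA-MB-453 lists had one.

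The 15 regions of the luminal transcription factors had a median merged width of 23 kb, and 7 were longer in MDA-MB-453, 2 in SKBR3 and 6 not called. Here and in the lists that follow, such counts stand beside the shares of all broad promoters called longer in SKBR3 (53.6%, or 30.1% of all regions) or longer in MDA-MB-453 (17.8%, or 30.7%), and they are descriptions, since width chose the regions. GATA3 (chr10:8044472-8077886) had 8.72, 11.5, 9.37 and 13.4 kb in SKBR3 and 33.4, 33.1, 33.3 and 32.4 kb in MDA-MB-453, and its fold enrichment was lower in SKBR3 by a log2 difference of -1.90 (SE 0.10, limma adjusted p = 2.3e-08). EHF, an ETS factor of epithelium, had 23.2 to 25.2 kb against 50.4 to 53.2 kb, and TFAP2B 3.43 to 5.86 kb against 15.3 to 19.8 kb. ELF3, another ETS factor of epithelium (chr1:201999967-202038975) went the other way, with 34.6 to 37.3 kb in SKBR3 and 11.6 to 13.2 kb in MDA-MB-453. FOXA1/TTC6 (18.4 to 18.9 against 15.0 to 17.7 kb), SPDEF (25.2 to 25.4 against 22 to 22.4 kb) and TFAP2A (21.4 to 22.3 against 21.2 to 22.8 kb) were not called. ESR1 and PGR, which encode the hormone receptors that define other luminal tumours, had no peak at a start site. By fold enrichment 9 of the 15 were higher in MDA-MB-453 and 1 in SKBR3. Over all broad promoters these shares were 35.7% and 32.5% (32.6% and 35.7% of all regions), which is also the background for the lists that follow.

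Of 17 regions at luminal keratins and epithelial genes, 15 were longer in SKBR3 and 1, ESRP1, in MDA-MB-453 (53.6% and 17.8% of all broad promoters). Fold enrichment was higher in SKBR3 at 9 and in MDA-MB-453 at 4 (32.5% and 35.7% of all broad promoters). The MUC1 region, which holds a second annotated gene, had 11.0 to 12.2 kb in SKBR3 and 1.40 to 2.76 kb in MDA-MB-453 (chr1:155183455-155196728). KRT7 had 25.7 to 28.4 kb against 21.4 to 22.4 kb and a fold enrichment of 19.8 to 28.7 against 13.5 to 16.4 (log2 difference 1.01, SE 0.10, limma adjusted p = 3.5e-06). The median region of this list had 11.3 kb covered in SKBR3 and 7.04 kb in MDA-MB-453.

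At the HER2 amplicon, 7 of 7 regions were longer in SKBR3. The region that holds the main start of ERBB2 with GRB7 and MIEN1 (chr17:39698423-39755653) had 56.9, 52.6, 57.1 and 53.6 kb in SKBR3 and 19.4, 22.1, 23.6 and 22.4 kb in MDA-MB-453. Its fold enrichment was higher in MDA-MB-453, at 31.4 to 42.6 against 12.3 to 16.1 (log2 difference -1.02 for SKBR3 minus MDA-MB-453, SE 0.11, limma adjusted p = 4.5e-06). A second region at another ERBB2 start with PGAP3, PNMT and TCAP had 26.5 to 40.1 kb against 11.5 to 12 kb, and PPP1R1B/STARD3 had 10.8 to 19.4 kb against 1.77 to 1.93 kb. RARA, the retinoic acid receptor (chr17:40303320-40353972), had 47.2 to 50.6 kb and 20.6 to 21.7 kb. By fold enrichment, 2 of the 7 were higher in each line (32.5% of all broad promoters in SKBR3 and 35.7% in MDA-MB-453). Copy number was not analysed here.

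Among 17 regions at ERBB receptors and signal adaptors, 6 were longer in each line. DUSP6, a phosphatase of ERK, had 1.61 to 2.15 kb in SKBR3 and 9.22 to 9.38 kb in MDA-MB-453, and PIK3R1, the regulatory subunit of PI3-kinase, 1.46 to 2.24 kb and 9.99 to 10.6 kb. Of the immediate early and AP-1 regions, 12 of 31 were longer in SKBR3 and 3 in MDA-MB-453. MAFF/PLA2G6 had 23.3 to 31.0 against 4.66 to 5.88 kb, while JUNB (14.0 to 15.4 against 13.7 to 15.3 kb) and HES1 (13.4 to 14.0 against 13.7 to 13.9 kb) overlapped. ID3, an inhibitor of basic helix-loop-helix factors, had a fold enrichment of 27 to 36.8 in SKBR3 and 6.77 to 7.25 in MDA-MB-453. Of 16 lipid and sterol synthesis regions, 7 were longer in SKBR3 and 3 in MDA-MB-453, near the shares of all broad promoters (53.6% and 17.8%). Fatty acid synthase (FASN) had 36.0 to 41.4 against 17.2 to 20.5 kb, its regulator SREBF1 38.7 to 41.4 against 24.4 to 26.8 kb, and INSIG2, which holds that regulator back, 3.30 to 9.67 against 13.4 to 14.6 kb.

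Of 47 regions at cytosolic ribosomal protein genes, 31 were longer in SKBR3 and 2 in MDA-MB-453, with medians of 5.91 and 3.80 kb, and of 14 at translation factors 11 and 0. At the 18 histone regions 1 was longer in SKBR3 and 3 were longer in MDA-MB-453. By fold enrichment 13 of 18 were higher in MDA-MB-453 and 0 in SKBR3 (35.7% and 32.5% of all broad promoters).

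Position on the chromosomes was described with the same calls. Broad promoters numbered from 25 on chromosome 18 to 286 on chromosome 1. The share of genes that were broad ran from 6.4% on chromosome X and 7.54% on chromosome 4 to 22.3% on chromosome 16. Those longer in SKBR3 made up 69.0% of the broad promoters of chromosome 19, 68.4% of chromosome 17 and 66.7% of chromosome 20, and 23.1% of chromosome 4, 27% of chromosome 8 and 29.5% of chromosome X. In chromosomes 4, 8 and X more broad promoters were longer in MDA-MB-453 than in SKBR3. Calls over all regions of a chromosome were not counted, and width chose the regions, so these shares describe the broad promoters only.

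To ask whether TWEAK altered the broad promoters, treated and untreated libraries were compared within each line. The median covered length differed by 0.010 kb in SKBR3 and by 0.007 kb in MDA-MB-453 (n = 2 and 2 in each line). These differences are given with no test, because width chose the regions. With 1 library left out, the difference in SKBR3 ran from -0.250 to 0.280 kb. By limma on covered length, 3 broad promoters were longer and 1 was shorter after TWEAK in SKBR3 (0.237% and 0.107% of all regions), and 0 were called in MDA-MB-453 (0.0113% and 0% of all regions). Of the 3 longer, BIRC3 and RFX1 had 5 kb or more covered only in the TWEAK libraries of SKBR3. At an unadjusted p under 0.05, 94 were longer and 91 shorter in SKBR3 (3.86% and 3.73% of broad promoters, below the 5.41% and 5.47% of all regions), and 37 and 19 in MDA-MB-453 (1.52% and 0.779%, against 1.75% and 1.61%). By fold enrichment, 12 rose and 1 fell in SKBR3 (0.960% and 0.00565% of all regions), and 0 were called in MDA-MB-453 (0.00565% and 0%). At an unadjusted p under 0.05, 109 had a higher and 84 a lower value after TWEAK in SKBR3 (4.47% and 3.45%, below the 7.64% and 4.78% of all regions), and 18 and 6 in MDA-MB-453 (0.738% and 0.246%, against 1.15% and 0.734%). The counts in SKBR3 rested on the scale. With normal scores of ranks, 1 rose by fold enrichment (0.198% of all regions) and 0 were called by length (0.0339% of all regions rose). Without centring, 9 rose by fold enrichment (0.977% of all regions), and 0 rose and 1 fell by length (0.153% and 0.0678% of all regions). With each of the 8 libraries left out in turn, between 0 (without SKBR3 untreated replicate 2) and 45 (without SKBR3 TWEAK replicate 1) rose by fold enrichment, and up to 32 fell (without SKBR3 TWEAK replicate 1). Covered length reached 5 kb in no list but the TWEAK libraries of SKBR3 at 107 of the 2438 broad promoters (4.39%). At 7 of the 15 regions called for TWEAK by either measure this was so, namely BIRC3, RFX1, USP31, RAD54L2, DTX4, TOM1 and ACTR3C/LRRC61. Their lengths and fold enrichment under TWEAK are therefore given as values, and no count of rises by either measure supports an effect.

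BIRC3 was the region called by both measures that is best known as a target of this pathway. It encodes cIAP2, a ubiquitin ligase that acts on the NF-kB-inducing kinase downstream of Fn14. Its region (chr11:102312176-102318982) had 2.62 and 2.13 kb covered in SKBR3 without TWEAK and 6.17 and 6.81 kb with it. In MDA-MB-453 it had 1.23 and 1.34 kb untreated and 1.5 and 1.87 kb after TWEAK. Only the TWEAK libraries of SKBR3 passed 5 kb, so BIRC3 met the width rule through them. Its lengths and fold enrichment are given as a description, and its calls for TWEAK are no support for an effect. Its fold enrichment in SKBR3 was 3.82 and 3.52 untreated and 8.87 and 10.1 after TWEAK (log2 difference 1.34, SE 0.17). The untreated MDA-MB-453 libraries gave 5.89 and 5.26 and the treated ones 6.54 and 6.98 (log2 difference 0.32, SE 0.17), with no call. The difference between the lines in the TWEAK effect missed the threshold (log2 1.02, SE 0.24, limma adjusted p = 0.258). The printed window of this promoter carries the 2 NF-kB matches.

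KLHDC7B, a kelch domain protein, had the largest rise in fold enrichment. The untreated SKBR3 libraries stood at 8.62 and 9.10 and the treated ones at 23.1 and 28.9 (log2 difference 1.52, SE 0.17, limma adjusted p = 0.00280). In MDA-MB-453 it had 3.40 and 3.89, then 5.49 and 6.71, with 1.20 and 0.534 kb covered untreated and 4.10 and 3.89 kb after TWEAK. These MDA-MB-453 groups did not overlap but were not called. DTX4, a ubiquitin ligase of the Deltex family, had 6.34 and 8.37 untreated and 14.9 and 19.6 after TWEAK in SKBR3, and 4.49 to 5 in MDA-MB-453. USP31, a ubiquitin protease, had 5.33 and 5.61, then 11.0 and 12.7. The plasminogen receptor gene PLGRKT had 5.68 and 8.50, then 13.1 and 19.8, and RAD54L2 4.90 and 5.57, then 10.3 and 11.1. DTX4, USP31 and RAD54L2 reached 5 kb only in the TWEAK libraries of SKBR3, so their values are a description. MOB3B rose both in fold enrichment (7.52 and 9.79, then 13.5 and 18.1) and in length (5.32 and 5.92 kb, then 12.6 and 16.1 kb).

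The other 5 rises were smaller, from 0.70 to 0.78 on the log2 scale, at ACTR3C/LRRC61, the semaphorin SEMA4C, SLC35F6, the phosphatase MTMR1 and the endosomal adaptor TOM1. ACTR3C/LRRC61 and TOM1 reached 5 kb only in TWEAK libraries of SKBR3, so their values are a description. KLHL11 fell by 0.77 on the log2 scale (6.27 and 8.73, then 4.42 and 4.42, limma adjusted p = 0.0449). By length alone, RFX1, a transcription factor, had 3.73 and 4.49 kb untreated and 10.4 and 11.1 kb after TWEAK, the only libraries in which it passed 5 kb, with a fold enrichment of 9.04 and 16, then 9.43 and 10.5. The CCDC85B/FIBP region went from 5.15 and 4.54 kb to 2.10 and 2.36 kb.

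**Figure D5:**
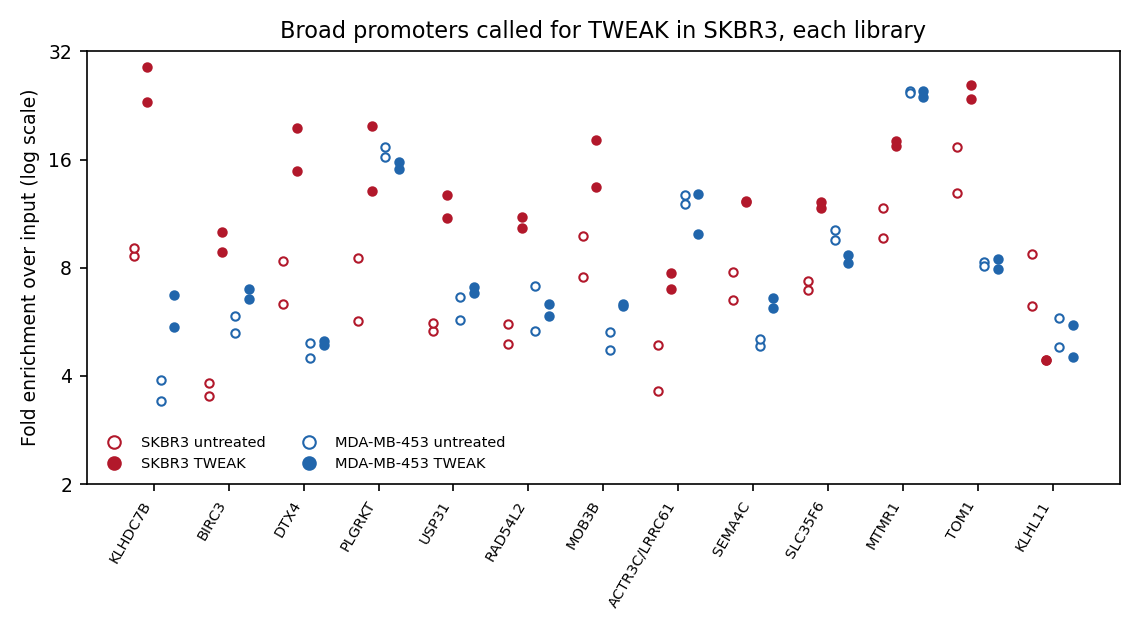
Fold enrichment over input (y axis, log scale) in each library at the 13 broad promoters called for TWEAK in SKBR3 by limma (x axis), for untreated (open) and TWEAK-treated (filled) libraries of SKBR3 (red) and MDA-MB-453 (blue). At 12 regions both TWEAK libraries of SKBR3 lie above both untreated ones, at KLHL11 below, and 0 of the 13 were called in MDA-MB-453. BIRC3, DTX4, USP31, RAD54L2, TOM1 and ACTR3C/LRRC61 reached 5 kb only in TWEAK libraries of SKBR3.

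The rest of the NF-kB list gave no further call. Of its 11 broad regions 1, BIRC3, was called for TWEAK in SKBR3, and the list had a median log2 difference in fold enrichment of 0.11 in SKBR3 and 0.07 in MDA-MB-453, beside -0.05 and -0.03 over all broad promoters. NFKB2, the subunit processed in the non-canonical pathway, had 10.3 and 9.35 untreated and 17.6 and 14.4 after TWEAK in SKBR3 (log2 difference 0.67, SE 0.18, limma adjusted p = 0.116). TRAF2, an adaptor of TNF receptors, had 14.5 and 18.1, then 24.5 and 24.3 (log2 difference 0.57, limma adjusted p = 0.0941). NFKBIA, the inhibitor of canonical NF-kB, had 11.6 and 8.93, then 14.8 and 10.4, and its groups overlapped. The Fn14 gene TNFRSF12A shared a region with CLDN6, HCFC1R1 and THOC6 (chr16:3019554-3025503), with a fold enrichment of 12 and 15.3 untreated and 16.9 and 16.4 after TWEAK in SKBR3, and 9.26 to 10.4 in MDA-MB-453. It was higher in SKBR3 than in MDA-MB-453 by a log2 difference of 0.95 (SE 0.10, limma adjusted p = 4.0e-06). Across the list, 8 regions were longer in SKBR3 and 0 in MDA-MB-453, TRAF2 (19.6 to 26.8 against 1.74 to 4.12 kb) and REL (4.24 to 5.25 against 1.46 to 2.01 kb) among them. TNFSF12, which encodes TWEAK, had no peak at a start site in any list.

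The test of whether TWEAK acted differently in the lines called 0 broad promoters by length and 0 by fold enrichment (0% and 0.0169% of all regions for a higher response in SKBR3). At an unadjusted p under 0.05 the response was higher in SKBR3 at 57 and lower at 62 by length (2.34% and 2.54% of broad promoters, against 3.58% and 3.43% of all regions), and at 72 and 35 by fold enrichment (2.95% and 1.44%, against 4.82% and 2.67%). Without centring fold enrichment also gave 0 calls (0.0734% of all regions), while leaving out SKBR3 TWEAK replicate 1 gave 4 and the stricter peak threshold gave 1 by length. A call in SKBR3 that is missing in MDA-MB-453 is therefore not shown to be a difference between the lines.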

How the data were processed

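H3K27ac ChIP-seq peak lists of 8 libraries were analysed. The study reports at least 2 biological replicates, and p-values measure the spread between these libraries. The authors aligned reads to hg38 with Bowtie2, called peaks per library with MACS2 against input and removed blacklisted regions, and the calling options are not given in the sources used here. Each deposited list gives a position, a score, a fold enrichment ratio, and, on the −log10 scale, both p-value and q-value. The score was not used. Library depth is unknown, since reads and the 2 inputs were not used here, and DiffBind, the study's tool, could not be applied. A deeper library can list more and longer peaks.

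The peaks were checked against hg38 chromosome ends, and 0 lay beyond them. The members and gene lists were chosen with earlier results of these data known. Start sites are those of GENCODE 44 basic transcripts. The log2 covered length and log2 fold enrichment of 17704 regions, centred per library, were fitted with limma 3.58.1 in R 4.3.3, with the groups as the design and Benjamini-Hochberg adjustment over all regions (threshold 0.05). Differences between library medians are given with no test. The fit and the merging were tested on simulated data. Named regions are the 10 widest, the 5 with the largest least covered length (1 of them is not reported here), the 3 on each side of the width limit, up to 5 called per direction for the lines and 3 for TWEAK, and regions of the gene lists, with the other TWEAK calls and the sequences of XBP1 and BIRC3 added after their values were seen. Alternatives changed the peak threshold, list size, presence rule, merging distance, start-site distance, width limit, scale and libraries, one at a time. Promoter sequences are from RefSeq (GRCh38.p14). Of 17 regions looked up in the RefSeq promoter table, 14 matched.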

Additional observations from a re-analysis of the deposited data

How the results depend on the processing

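The number of broad promoters was 928 when a list had to cover 50% of a region, 921 at a width limit of 10 kb, and 2304 to 2418 with 1 library left out. The median length in SKBR3 minus MDA-MB-453 was 0.220 kb with the 50% rule and 1.29 to 1.49 kb with 1 library left out. The TWEAK difference in the median turned negative in SKBR3 with lists of equal size (-0.0285 kb), a limit of 4 kb (-0.00300 kb) or 10 kb (-0.103 kb) and means (-0.0237 kb), and in MDA-MB-453 with a stricter peak threshold (-0.0270 kb), lists of equal size (-0.00750 kb) and start sites within 500 bp (-0.00350 kb). With 1 library left out it ran from -0.250 to 0.280 kb and from -0.0283 to 0.0345 kb. With 2 libraries a group, the TWEAK medians are given with no test.

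Counts for the lines by length (longer in SKBR3, longer in MDA-MB-453) were 410 and 98 with the 50% rule, 668 and 87 at 10 kb, and with 1 library left out 1139 to 1304 and 345 to 418. Those longer in MDA-MB-453 were 844 with normal scores and 730 at 4 kb. By fold enrichment they were 259 and 335 with the 50% rule, 366 and 285 at 10 kb, 683 to 844 and 745 to 911 with 1 library left out, and 385 in SKBR3 without centring. TWEAK calls in SKBR3 by length (longer, shorter) were 0 and 0 with normal scores and with the 50% rule, 0 longer without centring, 8 longer with the stricter threshold, 8 and 4 with lists of equal size, 2 shorter with start sites within 2 kb and with a limma trend (chosen after seeing the data), 3 shorter at 4 kb and 0 shorter at 10 kb, and with 1 library left out 0 to 8 and 0 to 3. In MDA-MB-453 the stricter threshold gave 1 shorter region and 1 interaction. By fold enrichment (up, down) they were 1 and 0 with normal scores, 4 and 0 with the 50% rule and at 10 kb, 0 down without centring and with lists of equal size, 4 down with the highest peak, and 0 to 45 and 0 to 32 with 1 library left out, when the interaction gave 0 to 4. CD9 reversed in length with normal scores (-0.36). The causes were not tested. BIRC3 kept its call in fold enrichment in 19 of 20 alternatives and in length in 9 of 19. Other calls in fold enrichment were kept less often, from 18 of 20 at DTX4 and USP31 to 12 of 20 at SEMA4C. MOB3B kept it in 10 of 20, ACTR3C/LRRC61 in 10 of 19 and KLHL11 in 7 of 20. By length, MOB3B was kept in 9 of 19, and RFX1 and CCDC85B/FIBP in 8 of 19. BIRC3, DTX4, USP31, RAD54L2, TOM1, ACTR3C/LRRC61 and RFX1 reached 5 kb only in TWEAK libraries of SKBR3. A kept call at these regions is therefore no support for an effect of TWEAK.

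With the replicate number as a block, TWEAK in SKBR3 gave 0 and 0 by length, 37 up and 7 down by fold enrichment and 2 interactions, and the median difference between the lines stayed 1.42 kb. Same-numbered libraries deviated together in SKBR3 (correlation 0.297 by length and 0.410 by fold enrichment) and not in MDA-MB-453 (-0.0305 and -0.00692). The labels do not say what a shared number stands for, so the numbers were not taken as pairs in either line, and whether the SKBR3 libraries were paired is not known. The unknown depth of the libraries limits all lengths, since the peak lists alone do not show which short peaks a deeper library would have joined.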
